A study of Mus musculus with 9 samples.

Results

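The genes of the ISG15 conjugation pathway were *Isg15*, *Usp18*, *Uba7*, *Ube2l6* and *Herc6*. They were taken as the rows of the deposited gene count table that carry these 5 symbols, out of 55471 genes in the table. All 5 passed the filter on low counts, as did 16260 genes in all. RNA sequencing was performed on dendritic cells (DCs) grown from bone marrow of wild-type C57BL/6 mice with GM-CSF, a growth factor that drives myeloid precursors toward DCs. The methods describe female mice 8 to 20 weeks of age. One group was left unstimulated, one was given LPS (100 ng/mL) and one was given IFN-β (1000 U/mL), each for 6 h. LPS comes from the outer membrane of Gram-negative bacteria and is sensed by a Toll-like receptor, and IFN-β belongs to the type I interferons. The 3 groups had 3 libraries each, with the letters A, B and C. The labels do not say whether the letters mark separate cultures or animals, so the p-values measure the spread between these samples, which may be technical.

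ISG15 is a small ubiquitin-like protein that cells make in response to type I interferon and attach to other proteins, a modification known as ISGylation. The attachment runs through an enzyme cascade like that of ubiquitin, in which UBA7 (the E1) activates ISG15, UBE2L6 (the E2) carries it, and HERC6 (the main E3 in mice, in the place that HERC5 takes in humans) transfers it to a target. USP18 removes ISG15 from its targets and also binds the type I interferon receptor, where it damps further signaling. ISG15 is also found free in cells and outside them, so the level of its mRNA does not give the amount of conjugated protein, which was not measured by these libraries.

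The libraries held 33425803 to 43735199 counts on genes. Expression is given as CPM, counts per 1000000 counts of the library, after the library size was corrected with TMM factors, which allow for differences in RNA composition between libraries. The factors lay at 1.18 to 1.26 without stimulation, at 0.783 to 0.841 with LPS and at 0.977 to 1.02 with IFN-β, so that the choice of scaling bears on small differences between groups. The summed CPM of 10 DC and myeloid markers was 9616 to 10952 without stimulation, 11586 to 12619 with LPS and 10781 to 11430 with IFN-β. Of the markers of other cells, 7 of T, B and NK cells summed to at most 0.456 CPM, 6 of neutrophils and their precursors to 8.82 to 22.5 CPM, and 9 of mast, erythroid, plasmacytoid and stromal cells to 2.06 to 4.92 CPM. The ranges of the 3 groups overlapped in the last 2 of these lists, although within each letter the neutrophil sum was highest with LPS and lowest with IFN-β, and 5 of the 7 T, B and NK cell markers had at most 3 counts in every library. In bulk samples such as these, fewer cells of a type and less RNA per cell cannot be told apart.

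*Isg15* (ENSMUSG00000035692) lies on chromosome 4 of GRCm38 (chr4:156199424-156200818, minus strand) and has 2 exons that span 756 bp of mature transcript. *Usp18* (ENSMUSG00000030107; chr6:121245906-121270917, plus strand), *Uba7* (ENSMUSG00000032596; chr9:107975505-107984060, plus strand), *Ube2l6* (ENSMUSG00000027078; chr2:84798828-84810335, plus strand) and *Herc6* (ENSMUSG00000029798; chr6:57581000-57664632, plus strand) are spread over 3 further chromosomes. Counts are of reads on the exons of each gene. In the annotation, *Usp18* shares 124 exonic bases with *Gm44148* on the opposite strand, which had 9 to 31 counts per library, and the strand setting of the counting is not given in the sources used here. *Uba7* shares 233 exonic bases with *Gm20661* (0 to 11 counts), and *Herc6* shares 1269 exonic bases with *Gm45193* (0 counts in every library), both on the same strand, so reads on those shared bases may be missing from the counts of both genes. A processed pseudogene on chromosome 17 matches the *Isg15* transcript over 482 bp at 95.23% identity and had 0 to 9 counts per library.

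RefSeq promoters were at hand for 4 of the 5 genes, and they differ in exact matches to a fixed core of the site best known for interferon-stimulated genes. The interferon-stimulated response element (ISRE) is the DNA site bound by the transcription factor complex that forms downstream of the type I interferon receptor, and by IRF proteins. The 250 bases before the start of *Isg15* (chr4:156200819-156201068, minus strand) and of *Ube2l6* (chr2:84798578-84798827, plus strand) are shown from 5′ to 3′ (GRCm38), since these were the genes with the largest and the smallest rise under LPS. Capitals mark matches to the ISRE core GAAANNGAA.
Isg15: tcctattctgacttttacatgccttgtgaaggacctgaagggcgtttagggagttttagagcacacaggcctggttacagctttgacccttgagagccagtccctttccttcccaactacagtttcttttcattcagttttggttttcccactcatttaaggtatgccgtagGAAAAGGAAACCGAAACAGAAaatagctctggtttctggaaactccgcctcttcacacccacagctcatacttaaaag
Ube2l6: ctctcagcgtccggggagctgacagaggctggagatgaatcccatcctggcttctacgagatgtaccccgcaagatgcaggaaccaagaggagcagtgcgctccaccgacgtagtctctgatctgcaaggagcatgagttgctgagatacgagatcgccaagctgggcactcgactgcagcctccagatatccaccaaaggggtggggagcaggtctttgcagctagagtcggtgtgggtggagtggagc
In *Isg15*, 3 overlapping matches ran without a break from base -78 to base -58, counted back from the start, and a match to the κB-like core GGANNTTCC lay at -41 to -33 on the opposite strand. The windows of *Ube2l6*, *Uba7* and *Herc6*, from 250 bases before to 50 bases after the start, held neither motif nor a gamma-activated site (TTCNNNGAA), with both strands searched. Among 32851 promoters of that length, 8.56% held the ISRE core, 8.298% the gamma-activated site and 4.259% the κB-like core. The ISRE core was found in 6 of the 13 commonly used interferon-stimulated genes that had a promoter entry. A match of these letters is a description of the window and does not show that a factor binds there, and the absence of a match holds for these letters and this window. Sites that depart from these letters were not searched for, so a window without a match may still hold a variant of the element.

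All 5 genes were higher in LPS-activated and in IFN-β-treated DCs than in unstimulated DCs, and in both cases every stimulated library lay above every unstimulated library. The call was an adjusted p under 0.05 in edgeR's quasi-likelihood test, and 32.8% of all tested genes were called higher under LPS and 23.6% under IFN-β. The libraries of LPS lay wholly above the unstimulated libraries for 34.6% of all tested genes, and those of IFN-β for 28.5%. *Isg15*, the modifier itself, had the largest rise under both stimuli, followed by *Usp18*, *Herc6*, *Uba7* and *Ube2l6* in that order. The level of *Isg15* was 2.15-fold and that of *Usp18* 2.04-fold lower under IFN-β than under LPS. The ranges of *Ube2l6* under the 2 stimuli overlapped with TMM factors, but not with library size as the only scaling. The transcripts of the 5 genes together made up 0.0151 to 0.0276% of all gene counts without stimulation, 0.225 to 0.251% with LPS and 0.168 to 0.180% with IFN-β.

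*Isg15* stood at 35.8, 22.1 and 8.80 CPM in the unstimulated libraries A, B and C. It reached 1002, 936 and 773 CPM in the LPS libraries and 450.9, 402 and 409.7 CPM in the IFN-β libraries, so that the 3 groups did not overlap. The log2 fold change was 5.35 ± 0.42 (SE, n = 3 per group) under LPS (40.8-fold, edgeR adjusted p = 9.3e-07) and 4.25 ± 0.40 under IFN-β (19.0-fold, edgeR adjusted p = 1.6e-05). Among the 16260 genes tested, *Isg15* had the 143rd largest log2 fold change under LPS and the 83rd largest under IFN-β. Both comparisons, for this and every other gene, use the same unstimulated libraries and are therefore not independent of each other.

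*Usp18*, the ISG15 protease and brake on the interferon receptor, stood at 54.2, 46.0 and 23.2 CPM in the unstimulated libraries A, B and C. Its level was 1185, 1087 and 963 CPM with LPS, and 550.2, 503 and 535 CPM with IFN-β. No library of one group reached the range of another. The log2 fold change was 4.71 ± 0.27 under LPS (26.2-fold, edgeR adjusted p = 1e-07) and 3.69 ± 0.26 under IFN-β (12.9-fold, edgeR adjusted p = 3e-06).

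*Uba7*, the E1 that activates ISG15, stood at 53.7, 45.4 and 39.0 CPM in the unstimulated libraries A, B and C. It rose to 379, 367 and 321 CPM under LPS and to 286, 261 and 279 CPM under IFN-β, again without overlap of the groups. The log2 fold change was 2.95 ± 0.12 under LPS (7.73-fold, edgeR adjusted p = 1.1e-08) and 2.58 ± 0.12 under IFN-β (5.98-fold, edgeR adjusted p = 4.2e-07). Its libraries were the closest of the 5 genes before stimulation, and its standard errors were the smallest.

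*Ube2l6*, the E2, stood at 50.3, 43.7 and 26.2 CPM in the unstimulated libraries A, B and C. It rose to 213, 194 and 201 CPM under LPS and to 229.8, 209 and 216 CPM under IFN-β. With TMM factors the ranges of the stimulated groups overlapped each other, and both lay above the unstimulated range. The log2 fold change was 2.34 ± 0.19 under LPS (5.06-fold, edgeR adjusted p = 1.2e-06) and 2.44 ± 0.19 under IFN-β (5.44-fold, edgeR adjusted p = 5.3e-06).

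*Herc6*, the E3, stood at 39.6, 34.0 and 22.2 CPM in the unstimulated libraries A, B and C. It rose to 425, 352 and 414 CPM under LPS and to 332, 275 and 294 CPM under IFN-β. All LPS libraries lay above all IFN-β libraries, although IFN-β library A and LPS library B differed by less than the spread within either group. The log2 fold change was 3.64 ± 0.19 under LPS (12.4-fold, edgeR adjusted p = 5.5e-08) and 3.23 ± 0.19 under IFN-β (9.42-fold, edgeR adjusted p = 1.2e-06).

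**Figure D1:**
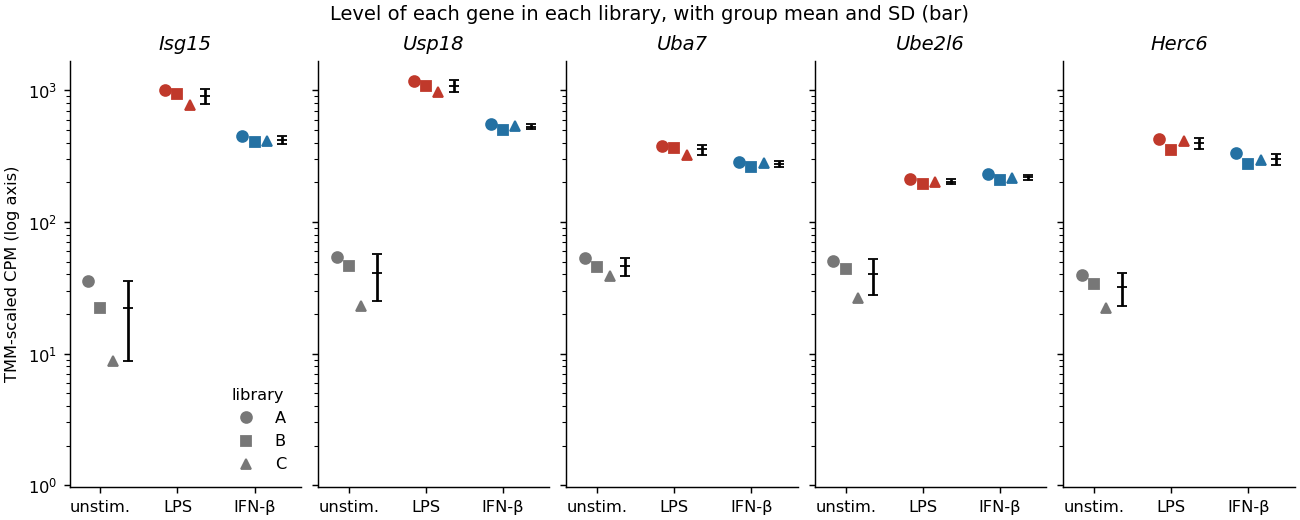
TMM-scaled CPM (log axis) of each of the 5 genes in the 3 unstimulated, 3 LPS and 3 IFN-β libraries, with the shape of the point giving the letter and the bar beside it the group mean ± SD. Every stimulated library lies above every unstimulated library, and the spread in unstimulated DCs is widest for *Isg15* (8.80 to 35.8 CPM).

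The rises of all 5 genes stayed past the threshold in every alternative fit that was run, with each of the 9 libraries left out, with another scaling and with the letters as a block. Leaving out 1 library moved the log2 fold change of *Isg15* between 4.96 and 5.86 under LPS and between 3.86 and 4.77 under IFN-β, the widest ranges of the 5 genes. The low ends were the values without unstimulated library C and the high ends those without unstimulated library A. An exact permutation test on the CPM of each gene, two-sided and with 3 libraries against 3, gave p = 0.1 for every rise, the smallest value this design allows (0.1071 after adjustment over 15 comparisons).

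The levels of different genes were compared per kb of annotated exon, since longer transcripts collect more reads. In unstimulated DCs the order was *Isg15* (29.4 ± 17.8 CPM per kb, SD, n = 3), *Ube2l6* (20.1 ± 6.23), *Usp18* (14.7 ± 5.76), *Uba7* (6.88 ± 1.11) and *Herc6* (3.43 ± 0.954). The ranges of *Isg15* and *Ube2l6* and those of *Ube2l6* and *Usp18* overlapped, so these neighbors in the order were not separated by their spread, while *Uba7* and *Herc6* stood apart below. Under LPS the order became *Isg15* (1196 ± 156 CPM per kb), *Usp18* (386 ± 39.8), *Ube2l6* (102 ± 5.04), *Uba7* (53.1 ± 4.60) and *Herc6* (42.7 ± 4.23), with no overlap between neighbors. Under IFN-β it was the same, at 557 ± 34.9, 189.8 ± 8.71, 109 ± 5.41, 41.1 ± 1.94 and 32.3 ± 3.09 CPM per kb. The E3 *Herc6* was thus the lowest of the 5 per kb in all 3 conditions and the modifier the highest. With the longest annotated transcript as the length, the order was the same, but the ranges of *Usp18* and *Uba7* in unstimulated DCs and of *Uba7* and *Herc6* under LPS overlapped.

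**Figure D2:**
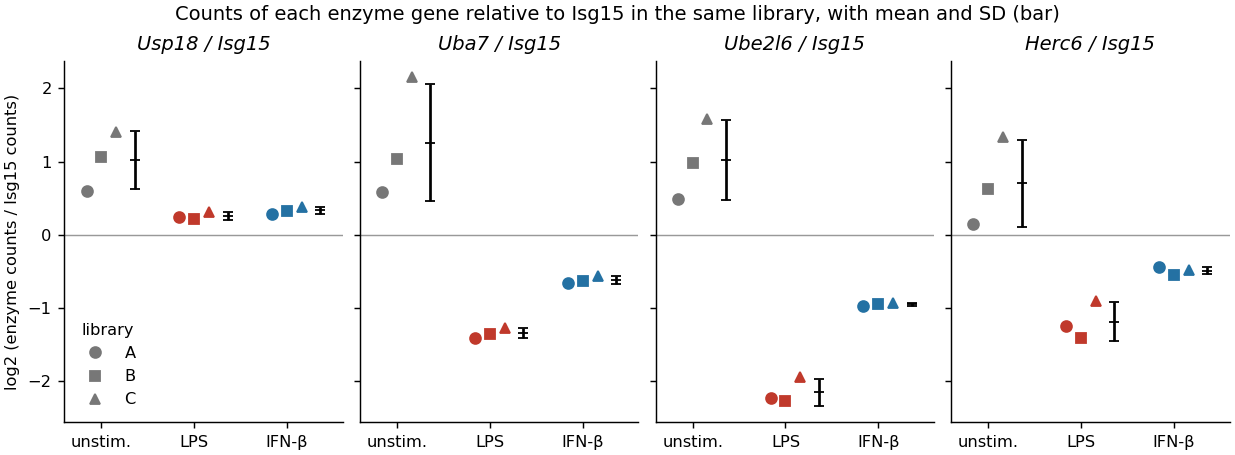
Log2 ratio of the counts of each enzyme gene to those of *Isg15* in the same library (0 means equal counts), in 3 libraries per condition, with the shape of the point giving the letter and the bar the mean ± SD. For *Uba7*, *Ube2l6* and *Herc6* the ratio is above 0 in every unstimulated library, lowest under LPS and between the 2 under IFN-β, and for *Usp18* the stimulated groups overlap.

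The balance between the modifier and its enzymes was compared within each library, as the log2 ratio of enzyme counts to *Isg15* counts, which does not depend on how the libraries were scaled. In unstimulated DCs every enzyme gene had more counts than *Isg15*, and under both stimuli *Uba7*, *Ube2l6* and *Herc6* had fewer. The ratio of *Ube2l6* to *Isg15* was 0.49, 0.99 and 1.58 in the unstimulated libraries A, B and C. With LPS it was -2.23, -2.27 and -1.94, and with IFN-β -0.97, -0.95 and -0.93. Expressed as linear counts, there were 4.43 *Isg15* counts for each *Ube2l6* count under LPS and 1.93 under IFN-β, against 0.494 in unstimulated DCs (ratios of the mean log2 values). The ratio of *Uba7* to *Isg15* had a mean of 1.26 ± 0.80 (SD, n = 3) in unstimulated DCs, -1.34 ± 0.07 under LPS and -0.61 ± 0.05 under IFN-β. That of *Herc6* was 0.70 ± 0.60, -1.18 ± 0.26 and -0.49 ± 0.05 in the same order. All 3 conjugating enzyme genes were therefore lower relative to *Isg15* under LPS than under IFN-β, by 0.73 for *Uba7*, 1.20 for *Ube2l6* and 0.69 for *Herc6* on the log2 scale, without overlap of the groups.

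*Usp18* differed from the 3 conjugating enzymes in this measure. Its ratio to *Isg15* fell from 1.02 ± 0.40 in unstimulated DCs to 0.26 ± 0.05 under LPS and 0.33 ± 0.05 under IFN-β, without overlap with the unstimulated libraries, but it stayed above 0 in all 9 libraries. Per kb the mean of *Usp18* was below that of *Isg15* in each condition. The stimulated groups overlapped each other and differed by 0.07 (exact permutation test, two-sided, p = 0.2, adjusted p = 0.2). For the other 11 of the 12 comparisons of ratios the exact permutation p was 0.1, the smallest possible with 3 against 3 libraries, and 0.1091 after adjustment over the 12. Leaving out any 1 library of the groups compared changed the direction of none of them.

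The IFN-β response was compared with the LPS response directly, which in this design equals IFN-β against LPS. *Isg15* was 2.15-fold lower in IFN-β-treated than in LPS-activated DCs (log2 fold change -1.10 ± 0.35, 95% interval -1.88 to -0.33, edgeR adjusted p = 0.023). *Usp18* was 2.04-fold lower (-1.03 ± 0.24, interval -1.55 to -0.50, edgeR adjusted p = 0.0043). *Uba7* was 1.29-fold lower (-0.37 ± 0.11, interval -0.61 to -0.13, edgeR adjusted p = 0.017). These 3 of the 5 genes were called, all of them lower, where 49.1% of all tested genes were called in either direction, 25.8% higher and 23.3% lower.

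*Herc6* had a log2 fold change of -0.40 ± 0.17 between the stimuli (interval -0.78 to -0.02, edgeR adjusted p = 0.075). With the letters A, B and C as a block it was -0.41 and past the threshold (edgeR adjusted p = 0.010), with a lower level under IFN-β in all 3 letters (-0.35 to -0.49). With library size as the only scaling *Herc6* was at -0.126 (edgeR adjusted p = 0.50), and with 1 library left out its adjusted p reached 0.2. *Ube2l6* was the one gene of the 5 with a value above 0, at 0.10 ± 0.18 (edgeR adjusted p = 0.66). Its interval of -0.29 to 0.50 excludes a difference as large as the point estimates of *Isg15* and *Usp18*. The difference was 0.11, 0.11 and 0.10 in letters A, B and C. With library size as the only scaling *Ube2l6* was higher under IFN-β by 0.38 (edgeR adjusted p = 0.063). Its ranges then did not overlap, at 81.2 to 84.8 CPM per kb under LPS and 106 to 112 under IFN-β. The calls of *Isg15* and *Uba7* were less stable than that of *Usp18*, which stayed past the threshold in every alternative. Without LPS library A, LPS library B, IFN-β library B or IFN-β library C the adjusted p for *Isg15* was 0.057, 0.058, 0.070 or 0.063, at log2 fold changes of -1.03 to -1.08. Without LPS library A, LPS library B or IFN-β library B that for *Uba7* was 0.052, 0.051 or 0.067, and with library size as the only scaling *Uba7* was at -0.093 (edgeR adjusted p = 0.40).

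Each gene was set beside a counterpart that does the same step for ubiquitin or belongs to the same family. *Uba1*, the main ubiquitin E1, increased by 1.03 ± 0.08 under LPS (edgeR adjusted p = 9.8e-07) and 0.64 ± 0.08 under IFN-β (edgeR adjusted p = 0.00012) on the log2 scale, so that *Uba7* went from 0.101 times the level of *Uba1* per kb in unstimulated DCs to 0.382 times under LPS and 0.388 times under IFN-β. *Ube2l3*, an E2 of ubiquitin related to *Ube2l6*, changed by 0.20 ± 0.07 (edgeR adjusted p = 0.021) and 0.39 ± 0.07 (edgeR adjusted p = 0.00079), but was at -0.38 under LPS with library size as the only scaling. Between the stimuli *Ube2l3* was higher under IFN-β by 0.19 ± 0.07 (edgeR adjusted p = 0.035). The ranges of *Ube2l6* and *Ube2l3* per kb overlapped in unstimulated DCs (20.1 ± 6.23 and 21.3 ± 1.36 CPM per kb), and *Ube2l6* was 4.16 times as high under LPS and 3.92 times under IFN-β. The ubiquitin gene *Ubb*, whose count is uncertain because its repeated ubiquitin units are nearly identical to those of other genes, exceeded *Isg15* per kb in unstimulated DCs (*Isg15* at 0.188 times *Ubb*), and *Isg15* exceeded *Ubb* under LPS (4.60 times) and IFN-β (2.68 times).

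*Herc3*, a small HERC protein, rose under IFN-β by 0.86 ± 0.07 (edgeR adjusted p = 9.4e-06) and was higher under IFN-β than under LPS by 0.70 ± 0.07 (edgeR adjusted p = 2.5e-05). Under LPS it was at 0.17 ± 0.07 (edgeR adjusted p = 0.068; 0.036 with the letters as a block), and at -0.41 with library size as the only scaling. *Herc6* per kb was 1.45 times *Herc3* in unstimulated DCs, 16.1 times under LPS and 7.50 times under IFN-β. *Usp5*, a ubiquitin-specific protease that also acts on ISG15, was at -0.21 ± 0.06 under LPS (edgeR adjusted p = 0.010) and -0.14 ± 0.06 under IFN-β (edgeR adjusted p = 0.084; 0.043 with the block). *Usp18* per kb was 0.776 times *Usp5* in unstimulated DCs, where their ranges overlapped, 23.7 times under LPS and 11.0 times under IFN-β.

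**Figure D3:**
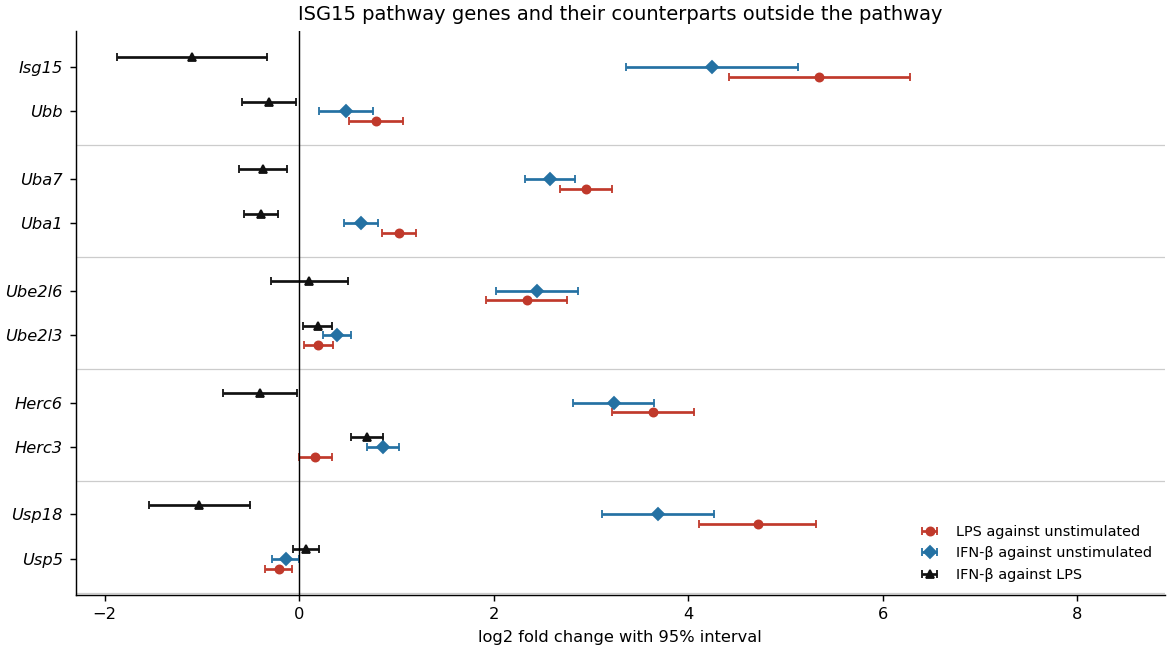
Log2 fold change with 95% interval for each gene of the pathway and its counterpart, under LPS (circles) and IFN-β (diamonds) against unstimulated DCs and for IFN-β against LPS (triangles). The 5 pathway genes lie between 2.34 and 5.35 against unstimulated DCs and the counterparts between -0.21 and 1.03, and for *Ube2l6* the interval of IFN-β against LPS spans 0.

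Further enzymes and partners of ISG15 or USP18 moved in both directions. Of 16 such genes 15 were tested, of which 6 were higher and 5 lower under LPS (6 and 9 with library size as the only scaling), and 6 were higher and 3 lower under IFN-β (5 and 8). With TMM factors 11084 of all 16260 tested genes were called under LPS, with 32.8% of those tested higher. Under IFN-β 7631 were called, with 23.6% of those tested higher, so movement in both directions is not particular to this list. The median log2 fold change was 0.14 under LPS and 0.04 under IFN-β, beside -0.04 and -0.02 for all tested genes. *Stat2*, through which USP18 is recruited to the interferon receptor, was higher by 2.48 ± 0.20 with LPS and by 2.15 ± 0.20 with IFN-β. *Trim25*, an E3 that can attach ISG15, rose by 1.75 ± 0.15 and 1.37 ± 0.15. *Ube2e1*, an E2 that can also carry ISG15, rose by 1.30 ± 0.12 and 1.09 ± 0.12. The largest falls under LPS were those of the protease gene *Usp2* (-1.93 ± 0.25) and of *Skp2* (-1.43 ± 0.12), an F-box protein that targets USP18 for degradation. Under IFN-β *Skp2* fell by 0.45 ± 0.11 and *Hdac6*, a deacetylase, by 0.60 ± 0.12, and *Usp2* was at -0.19 ± 0.22 (edgeR adjusted p = 0.50). *Arih1*, an E3 that attaches ISG15, rose by 0.33 ± 0.09 under IFN-β and was at 0.18 ± 0.09 under LPS (edgeR adjusted p = 0.096; 0.021 with the letters as a block). With library size as the only scaling *Arih1* was at 0.02 under IFN-β (edgeR adjusted p = 0.83), and its direction under LPS turned (-0.40). *Usp14* fell by 0.52 ± 0.10 and 0.38 ± 0.10, while *Usp16* (-0.09 ± 0.08 and 0.04 ± 0.08) and *Usp21* (0.14 ± 0.09 and -0.12 ± 0.09), which also can act on ISG15, passed in neither comparison. With library size as the only scaling both were called lower under LPS and IFN-β (*Usp16* -0.67 and -0.27, *Usp21* -0.44 and -0.42).

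Among 16 genes whose proteins are known to be modified by ISG15, 13 were higher and 2 lower under LPS (8 and 4 with library size as the only scaling), and 10 were higher and 2 lower under IFN-β (8 and 6). The share of all tested genes called higher with TMM factors was 32.8% under LPS and 23.6% under IFN-β. Many of these proteins are themselves products of interferon-stimulated genes, as are *Ifit1*, which binds viral RNA (6.47 ± 0.43 under LPS and 4.93 ± 0.40 under IFN-β), and its partner *Ifit3* (5.74 ± 0.55 and 5.12 ± 0.54), which has a close copy in the mouse genome. *Plcg1*, a phospholipase, fell by 0.65 ± 0.08 under LPS and 0.46 ± 0.08 under IFN-β, the kinase gene *Mapk3* fell by 0.55 ± 0.09 under LPS, and *Irf3*, a transcription factor of the innate response, fell by 0.30 ± 0.08 under IFN-β. Of the 16 genes, 10 were lower under IFN-β than under LPS and 1 was higher (5 and 2 with library size as the only scaling). In that comparison 23.3% of all tested genes were called lower and 25.8% higher with TMM factors.

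The parallel enzyme families held genes called lower as well as genes called higher, apart from the HERC genes under LPS with TMM factors. The counts in these families depended on the scaling. Among all 16260 tested genes 11084 were called under LPS, 48.1% of them higher. Under IFN-β 7631 were called, 50.3% of them higher, so calls in both directions are not particular to these families. Of 9 other E1 genes, 5 were higher and 4 lower under LPS (2 and 6 with library size as the only scaling), and 3 were higher and 3 lower under IFN-β (1 and 6). The largest rises were those of *Uba1*, at less than that of *Uba7* under both stimuli, and of *Uba6* (0.92 ± 0.10 and 0.43 ± 0.10), the second E1 of ubiquitin. *Atg7*, the E1 of autophagy, fell by 1.29 ± 0.07 under LPS and 0.37 ± 0.07 under IFN-β, and *Sae1*, of the SUMO E1, fell by 0.78 ± 0.08 and 0.59 ± 0.08. For these genes the comparison of IFN-β with LPS gave 4 calls, and 7 with the letters as a block.

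Of 32 other E2 genes, 23 were higher and 4 lower under LPS, but 8 were higher and 15 lower with library size as the only scaling. Under IFN-β 15 were higher and 4 lower, against 2 and 12. With TMM factors 32.8% of all tested genes were called higher under LPS and 23.6% under IFN-β. *Ube2e1* led under both stimuli, followed by *Ube2s* (1.11 ± 0.07) under LPS and *Ube2d3* (0.53 ± 0.11) under IFN-β, and none of the 32 reached the rise of *Ube2l6*. The mitotic E2 *Ube2c* fell by 2.11 ± 0.17 under LPS and 0.88 ± 0.16 under IFN-β, and *Ube2t*, an E2 of DNA repair, fell by 1.94 ± 0.15 and 0.94 ± 0.13.

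Among 15 tested genes of ubiquitin and other ubiquitin-like modifiers, 8 were higher and 4 lower under LPS (2 and 9 with library size as the only scaling), and 4 were higher and 3 lower under IFN-β (2 and 8; 6 and 5 with the letters as a block). *Map1lc3b*, the autophagy modifier LC3B, fell by 0.42 ± 0.08 under LPS, and *Urm1* fell by 0.32 ± 0.10 under IFN-β. In this list IFN-β library A decided part of the count, since 4 genes were called under IFN-β without it.

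Of the 4 other HERC genes, *Herc4* (0.36 ± 0.07) and *Herc1* (0.29 ± 0.08) were higher under LPS, *Herc3* and *Herc4* (0.20 ± 0.07) were higher under IFN-β, and *Herc2* was lower under IFN-β (-0.27 ± 0.08). With library size as the only scaling all 4 were lower under LPS and *Herc4* was at -0.11 under IFN-β. When unstimulated library C, IFN-β library A or IFN-β library B was left out, 1 of the 4 was called under IFN-β. Of 41 tested genes of the ubiquitin-specific proteases other than *Usp18*, 16 were higher and 12 lower under LPS (10 and 28 with library size as the only scaling), and 11 were higher and 9 lower under IFN-β (5 and 25). *Usp25* (2.61 ± 0.12 and 1.83 ± 0.11) and *Usp12* (1.78 ± 0.08 and 1.12 ± 0.08) had the largest rises of that family under both stimuli. Under LPS the estimate for *Usp25* was above that for *Ube2l6* (2.34 ± 0.19). *Usp20* (-1.58 ± 0.12) fell most after *Usp2* under LPS, and *Usp10* (-0.99 ± 0.14) and *Usp36* (-0.65 ± 0.11) fell most under IFN-β. Without TMM factors the median log2 fold change of all tested genes moved to -0.62 under LPS, -0.32 under IFN-β and 0.29 between the stimuli, and the share of called genes that were higher moved from 48.1% to 21.9%, from 50.3% to 22.3% and from 52.5% to 77.9%.

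The pathway was next set beside other genes of the type I interferon response. Of 11 tested genes of the interferon signaling chain, all were higher under both stimuli (10 of 11 with library size as the only scaling), with medians of 2.40 under LPS and 1.83 under IFN-β. *Irf7*, a transcription factor that amplifies the response, rose by 3.34 ± 0.53 and 3.12 ± 0.52. *Ifnb1*, which encodes IFN-β, had 0, 0 and 1 counts in the unstimulated libraries A, B and C, 137, 117 and 93 with LPS and 9, 5 and 9 with IFN-β. Transcripts of the cytokine that was added to one group were thus more abundant in the other, by 4.20 ± 0.33 on the log2 scale (edgeR adjusted p = 2.5e-06).

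All 19 tested genes of 20 commonly used interferon-stimulated genes were higher under LPS and under IFN-β, with medians of 3.01 and 2.33, beside medians of 3.64 and 3.23 for the 5 pathway genes. *Rsad2*, the antiviral enzyme viperin, had the largest rise of the list under LPS (8.05 ± 0.50) and under IFN-β (6.22 ± 0.46), followed by *Cmpk2* (7.50 ± 0.39) under LPS and *Ifit2* (5.59 ± 0.62) under IFN-β. Between the stimuli 11 of the 19 were called lower under IFN-β, all 19 values were below 0, and their level under IFN-β was 0.256 (*Cmpk2*) to 0.870 (*Oas1a*) times that under LPS. *Isg15* (0.466 times), *Usp18* (0.491), *Herc6* (0.757) and *Uba7* (0.774) lay within that range, and *Ube2l6*, at 1.08 times, lay above it.

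**Figure D4:**
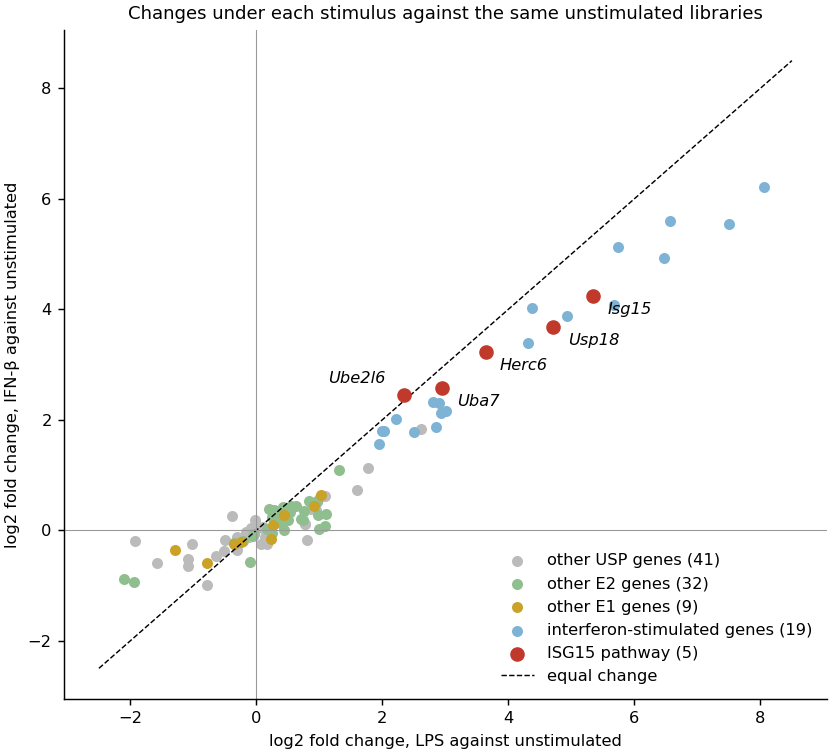
Log2 fold change under LPS (horizontal axis) and under IFN-β (vertical axis) of the 5 pathway genes, 19 interferon-stimulated genes and 3 ubiquitin enzyme families, all against the same unstimulated libraries, with a dashed line at equal change. *Ube2l6* (2.34 and 2.44) lies just above the line, and the other 4 pathway genes and all 19 interferon-stimulated genes lie below it.

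The genes whose pattern over the 9 libraries was most like that of each pathway gene were ranked by Pearson's r of log2(CPM + 0.5) among 12810 genes with a mean of at least 1 CPM. These values describe 9 libraries in 3 conditions that share their depth and scaling, and genes are not independent replicates. *Isg15* was nearest to *Trafd1* (r = 0.9989), *Znfx1* and *Rnf114*, and *Usp18* to *Rasa4* (0.999), *Mlkl* and *Pml*. *Uba7* was nearest to *Isg20* (0.9993), *Parp10* and *9530082P21Rik*, and *Herc6* to *Iigp1* (0.999), *Tgtp2* and *Ifi203-ps*. *Ube2l6* was nearest to *Rnf34* (0.9991), *Epsti1* and *Ifi207*. With TMM factors IFN-β and LPS differed by 0.04, -0.01 and -0.01 on the log2 scale for these 3 genes. They were picked for likeness to *Ube2l6* over the same libraries, so a like difference between the stimuli follows from the choice. Between the 5 genes, r was highest for *Isg15* and *Usp18* (0.9982) and lowest for *Usp18* and *Ube2l6* (0.9699).

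The rise was not shared by all genes next to the 5. Of the 10 nearest tested genes, 1 on each side, 5 were higher and 3 lower under LPS, and 4 were higher and 3 lower under IFN-β. Of all 16260 tested genes, 32.8% were called higher under LPS and 23.6% under IFN-β. In either direction 11084 and 7631 of them were called, so these counts are not read as a property of the neighbors. *AW011738*, 2486 bp from *Isg15*, was higher by 3.97 ± 0.22 with LPS and by 3.39 ± 0.22 with IFN-β, while *Agrn*, 1936 bp away on the other side, rose by 1.50 ± 0.13 and 0.66 ± 0.12. *Inka1*, 163 bp from *Uba7*, was at -0.59 ± 0.35 and -0.16 ± 0.33 and passed in neither comparison, and *Traip*, on the other side, fell by 1.63 ± 0.22 and 0.84 ± 0.20. *Tuba8* near *Usp18* (1.60 ± 0.26 and 2.33 ± 0.25) and *Ppm1k* near *Herc6* (2.48 ± 0.17 and 1.58 ± 0.17) rose, and *Pyurf* near *Herc6* (-1.16 ± 0.16 and -1.12 ± 0.16) and *Timm10* near *Ube2l6* (-0.77 ± 0.15 and -0.67 ± 0.15) fell. *Serping1* near *Ube2l6* rose under LPS (2.93 ± 0.47) and was at 0.50 ± 0.58 under IFN-β, and *Slc6a13* near *Usp18* was at 0.21 ± 0.19 and -0.41 ± 0.19.

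Before stimulation each of the 5 genes varied more among libraries than after it, by the least for *Uba7*. The spread of all tested genes before and after stimulation is not given here. The highest unstimulated library exceeded the lowest by 4.06-fold for *Isg15*, 2.34-fold for *Usp18*, 1.92-fold for *Ube2l6*, 1.78-fold for *Herc6* and 1.38-fold for *Uba7*, whereas within the stimulated groups no gene exceeded 1.30-fold. Unstimulated library C was the lowest of the 3 and library A the highest for all 5 genes. The same held for the interferon-stimulated genes, 19 of 19 of which were lowest in library C and 17 of 19 highest in library A. Library C was the lowest unstimulated library for 37.0% of all tested genes, and library A was the highest for 6478 of the 16260. The level in library A was a median of 2.14 times that in library C for these 19 genes (1.22 to 7.42), against 1.18 times under LPS and 1.02 times under IFN-β.

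Library A was the highest of its group for each of the 5 genes in all 3 conditions, 15 of 15 cases with TMM factors and 12 of 15 with library size as the only scaling. The share of all tested genes highest in library A is not given here for the stimulated groups. The fold changes within letters followed the unstimulated level, with LPS from 4.79 (letter A) to 6.38 (letter C) and with IFN-β from 3.64 to 5.46 for *Isg15*, on the scale of log2(CPM + 0.5). The unstimulated libraries held 33425803 to 35877346 counts, and all 3 had 0 or 1 counts of *Ifnb1*. The neutrophil and precursor markers were also highest in library A of each group. Their summed CPM was 19.5, 9.05 and 11.2 in the unstimulated libraries A, B and C, 22.5, 12.1 and 15.1 in those of LPS and 15.6, 8.82 and 9.31 in those of IFN-β, so that in every group the sum was lowest in B and not in C. *S100a9*, a gene of this list, was instead lowest in C in every group. It was at 6.06, 2.09 and 1.02 CPM without stimulation, 5.77, 1.46 and 0.768 with LPS and 5.08, 1.81 and 0.829 with IFN-β. The part that such cells, culture or handling had in the spread of the 5 genes was not tested.

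**Figure D5:**
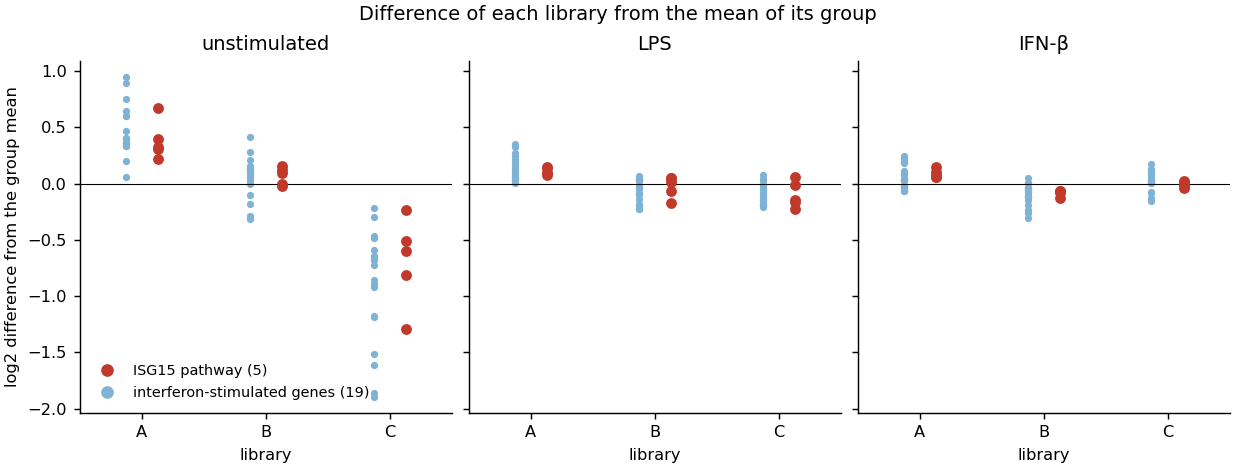
Log2 difference of each library from the mean of its group for the 5 pathway genes (red) and 19 interferon-stimulated genes (blue), in unstimulated, LPS-activated and IFN-β-treated DCs, on a scale shared by the 3 panels. Unstimulated library C lies below 0 for all 24 genes, and the libraries of the stimulated groups lie close to 0.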

How the data were processed

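The authors trimmed reads with Trim Galore 0.6.0, mapped them to mm10 (GRCm38) with STAR 2.7.8a per the labels (the methods name another STAR release), counted reads per gene with STAR itself on the GENCODE release before the one used here, and deposited raw counts per library, with no sign of normalization or of a filter on low counts. Libraries were depleted of ribosomal RNA. Counts were tested in R 4.3.3 with edgeR 4.0.16 and limma 3.58.1, with TMM factors and the quasi-likelihood F-test as in the study's methods, 1 term per condition, all 9 libraries in 1 fit and filterByExpr by condition as the filter. P-values were adjusted over 16260 genes by the Benjamini-Hochberg method, with a threshold of 0.05. The SE of a log2 fold change is its size divided by the square root of F. The test was tried on simulated counts. A count of 3 (0.0674 to 0.106 CPM by library) was used as the floor, which covers counting error only.

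Replicates of a group differed beyond sampling noise in every pair. After group means were subtracted, libraries of the same letter had correlations across genes of 0.134 to 0.546 (9 pairs, all above 0.1). The letters were therefore taken as pairing the libraries, but only in the alternative fit with the letters as a block. The main fit and the permutation tests did not use the pairing. The pairing comes from the data and not from the labels, and the blocked value is given beside a printed gene comparison whose call it changed and a printed total of calls that it moved by over 1.5 times.

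Gene models came from GENCODE M21 (55230 of 55471 identifiers matched), promoters from RefSeq (GRCm38.p6; *Usp18* had no entry) and transcript copies from BLAST 2.17.0. The pathway genes and lists were chosen with earlier results of these data known. The genes named are the 5 pathway genes, their counterparts, 7 further enzymes that act on ISG15, the 2 largest rises and falls called in each list under each stimulus, and the nearest genes in pattern and position. Some genes that this rule names are not reported here. *Oas1a* was named after its value was seen. Alternatives were DESeq2 1.42.0, upper-quartile factors, library size only, no filter, at least 10 counts in every library, the 2 compared groups alone, the letters as a block, each library left out, a log2 fold change of at least 1, and another transcript length.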

Additional observations from a re-analysis of the deposited data

How the results depend on the processing

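Of 240 refitted log2 fold changes of the 5 genes, none changed direction and 226 stayed on the same side of the threshold, among them all those of LPS and of IFN-β against unstimulated DCs. The 14 others concerned IFN-β against LPS. *Uba7* lost its call with library size as the only scaling (-0.093). *Herc6* gained one with DESeq2 (-0.43, adjusted p = 0.035), without a filter (-0.38, edgeR adjusted p = 0.0075), with the 2 groups alone (-0.38, edgeR adjusted p = 0.013), with the letters as a replicate block (-0.41), and without unstimulated library A or C. With library size as the only scaling *Herc6* moved the other way, to -0.126 (edgeR adjusted p = 0.50), and had no call. With 1 library left out, *Isg15* ranged from -1.21 to -1.03, *Uba7* from -0.45 to -0.33 and *Herc6* from -0.49 to -0.34, and the number of the 5 genes called ranged from 1 to 4 (1 without LPS library A, LPS library B or IFN-β library B). The replicate block changed no other call of the 5 genes.

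With library size as the only scaling, 4 HERC genes were called under LPS, and for IFN-β against LPS 11 ISG15 partners, 7 ISGylation targets, 1 HERC gene and 3 interferon signaling genes. With the replicate block 11 modifier genes were called under IFN-β and 7 E1 genes for IFN-β against LPS. Leaving out 1 library moved the modifier genes called under IFN-β between 4 and 8 and the HERC genes between 1 and 3. The cause of these shifts was not tested. Of 72 ratio differences with 1 library left out, all kept their direction, and levels per kb moved beyond 1 SD in 17 of 30 cases with another scaling or transcript length.

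The counts of the 5 genes ran from 390 to 37302 per library, so counting error was small beside the spread between libraries.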
